A study of Mus musculus with 10 samples.

Results

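The 33 genes described here encode 12 alpha subunits, 5 beta subunits and 9 gamma subunits of heterotrimeric G proteins and 7 adenylyl cyclases. They were taken from the deposited table of 29883 genes by matching Ensembl gene IDs to a list of symbols, and all 33 were found. Gnal, Gng7 and Adcy5, the striatal forms of these families, were left out of the list by its rule and are used only for reference. The nucleus accumbens (NAc), the ventral part of the striatum, was sequenced from 5 C57BL/6J (B6) and 5 DBA/2J (D2) mice, with 1 poly-A library per mouse. All 10 animals were ethanol-naive, group-housed males of these inbred strains, untreated and 9 weeks old at tissue collection. The strains differ in behavioral responses to ethanol, and the comparison asks how basal mRNA levels differ between them.

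A G protein couples a cell-surface receptor to enzymes and channels inside the cell. The alpha subunit binds GTP after the receptor is activated and separates from the beta-gamma pair, and both then act on effectors. Gs and Golf alpha subunits stimulate adenylyl cyclases to make cyclic AMP, Gi/o subunits inhibit them, and Gq/11 subunits activate phospholipase C beta. G12/13 subunits form a further class. In the striatum the dopamine receptor Drd1 signals mainly through Golf and Drd2 through Gi/o, and both converge on adenylyl cyclase 5.

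The libraries held from 96977262 to 116776714 counts each. Of the 11 striatal neuron markers, all were detected, with mean levels of 15.00 to 15.33 in B6 and 14.82 to 15.06 in D2 mice (log2 of normalized counts plus 1), and 7 were significantly lower in D2. Markers of neocortical projection neurons, which the NAc should largely lack, set B6 replicates 3 and 5 apart. The mean log2 level of the 8 cortex markers was 11.95 in B6 replicate 3 and 11.94 in B6 replicate 5, against 9.33, 9.11 and 9.92 in B6 replicates 1, 2 and 4. It was 10.26, 11.24, 11.26, 11.15 and 10.65 in D2 replicates 1 to 5. Their summed level ran from 16044 to 111587 normalized counts in B6 and from 32739 to 74167 in D2. None of the 8 differed between strains with edgeR or DESeq2, and 1, Cux2, had an unadjusted p under 0.05. Cux2 also went against the other markers. It was lowest of all 10 mice in B6 replicates 3 and 5, at 5352 and 5721 normalized counts, and it is part of the mean used below. Results that move with these markers are given below with and without B6 replicates 3 and 5. Without them every D2 mouse had a higher mean marker level than every B6 mouse, so strain and marker level cannot be told apart in those fits. B6 replicates 3 and 5 also stood apart on other lists. Their summed oligodendrocyte markers, 673212 and 669802 normalized counts, were the highest of all 10 mice. Among B6 mice they had the highest summed vascular and blood markers. They also had the lowest summed striatal markers of the B6 mice, at 468100 and 463631, against 524004 to 601123 in the others. In bulk tissue, fewer cells of a type and less RNA per cell cannot be told apart.

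Strain differences among the G protein and cyclase genes were about as frequent as among all genes. Of the 33 genes, 6 differed significantly (18.2%; edgeR quasi-likelihood test, Benjamini-Hochberg adjusted p under 0.05 over all genes), against 18.3% of all genes tested. D2 mice had higher levels of 2 of them, Gng3 and Gna13, where 8.50% of all genes were higher. The other 4, Gnao1, Gnb2, Gng5 and Gng12, were lower in D2, where 9.83% of all genes were lower. Among genes with a mean of at least 1000 normalized counts, 6 of 26 members differed (23.1%), against 22.3% of all such genes. None of the 7 members below that mean differed by edgeR or DESeq2, and 1 of them had an unadjusted p under 0.05. All 33 members had at least 10 raw counts in every library.

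The largest change among the 6 was 0.25 on the log2 scale and the smallest 0.13. Over all 33 members the median log2 fold change was 0.02, and the median absolute change was 0.11, against 0.20 over all genes and 0.079 over those averaging 1000 normalized counts or more. At an unadjusted p under 0.05 there were 11 members. Of the 27 members that did not pass, 11 had a 95% interval lying wholly within 0.2 of zero on the log2 scale: Gnai1, Gnai2, Gnai3, Gnaz, Gnaq, Gna11, Gnb1, Gnb4, Gnb5, Adcy3 and Adcy9. For the others the interval allows larger differences. Scaling by total counts in place of TMM gave 6 calls, against 18.3% of all genes. Of these calls 3 were higher and 3 lower, since Gnb2 dropped out and Gnb4 came in.

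**Figure D1:**
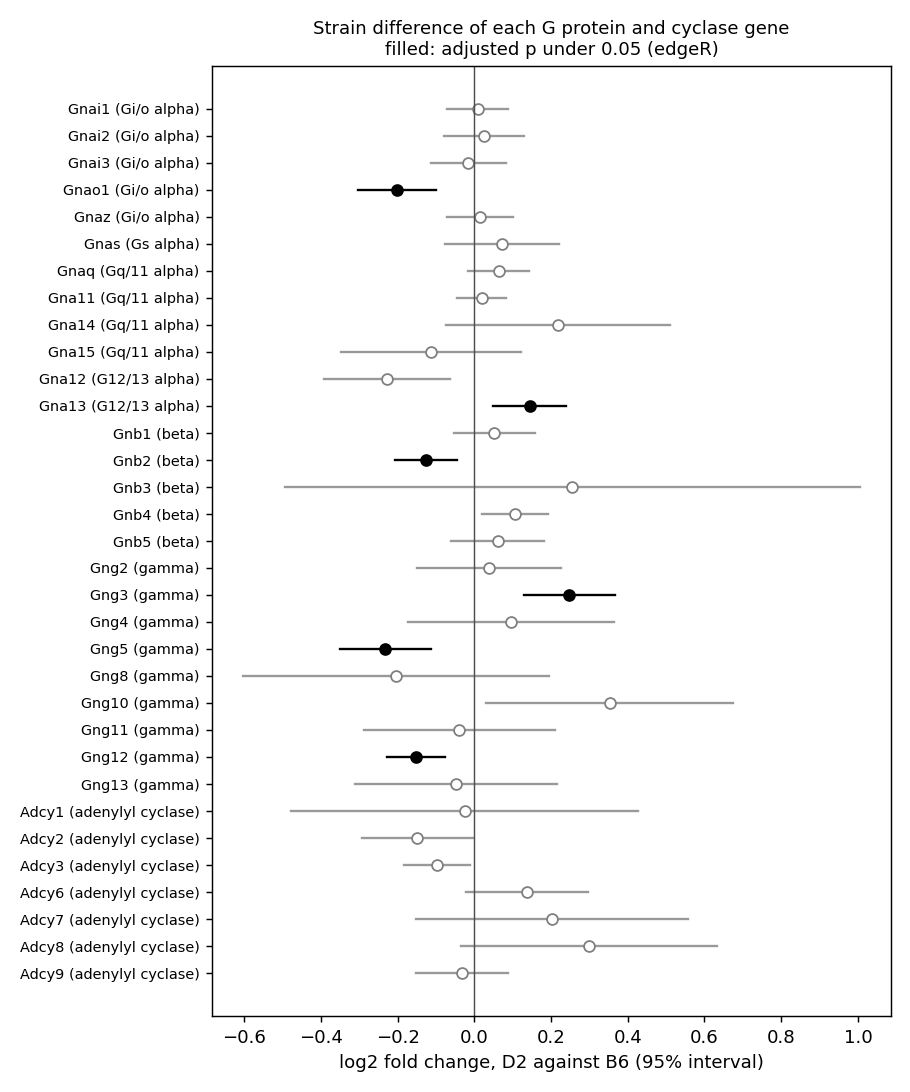
Log2 fold change of each of the 33 genes in D2 against B6 mice (x axis), with 95% intervals as lines, grouped by family on the y axis. Filled points are the 6 genes with an adjusted p under 0.05, whose changes lie between 0.13 and 0.25 in size, and the widest interval belongs to Gnb3, at 9 to 28 normalized counts per mouse.

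Within the Gi/o alpha subunits, 1 of 5 differed. Gnao1 encodes Go alpha, the most abundant G protein alpha subunit of brain, which couples to Drd2-type dopamine, opioid and GABA-B receptors. Its gene lies on chromosome 8 (GRCm39, 94536594 to 94696016). In B6 replicates 1 to 5, Gnao1 had 87937, 89292, 102338, 93507 and 100397 normalized counts. In D2 replicates 1 to 5, it had 80632, 81828, 84153, 82680 and 82493. Every D2 mouse was below every B6 mouse, and the D2 values spread over a far narrower range. On the log2 scale Gnao1 differed by -0.20 ± 0.046 (SE; edgeR adjusted p = 0.0083), or -13.0%. The highest pair of Gnao1 values came from B6 replicates 3 and 5, and without them the log2 fold change was -0.13 ± 0.034 (adjusted p = 0.015).

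The 3 Gi alpha subunits, which inhibit adenylyl cyclase, were close to equal. Gnai1 averaged 16640 ± 534 normalized counts in B6 and 16745 ± 695 in D2 (SD, n = 5 each). Gnai2 averaged 18775 ± 1340 and 19120 ± 624, and its log2 fold change without B6 replicates 3 and 5 was -0.05. Gnai3, the least abundant of them, averaged 3108 ± 119 and 3075 ± 170. Their log2 fold changes were 0.01, 0.03 and -0.02, with the widest of the 95% intervals running from -0.11 to 0.08 for Gnai3 and from -0.08 to 0.13 for Gnai2. Gnaz, which encodes the pertussis toxin-resistant Gz alpha, also lay within a narrow interval around zero (0.01, from -0.07 to 0.10).

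Gnas, which encodes the ubiquitous stimulatory Gs alpha, had a log2 fold change of 0.07 ± 0.069 (adjusted p = 0.56). Its B6 values were 78606, 79335, 92632, 72042 and 91029 normalized counts. The D2 values were 91585, 86805, 81867, 91952 and 82532. The strains overlapped, and B6 replicates 3 and 5 were the highest B6 mice. When these mice were left out, D2 was higher by 0.18 ± 0.051 (adjusted p = 0.025).

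None of the 4 Gq/11 alpha subunits differed by edgeR or DESeq2, and none had an unadjusted p under 0.05. Gnaq and Gna11, which activate phospholipase C beta in most cells, changed by 0.06 and 0.02 on the log2 scale. Gna11 was the tightest of all members, with a 95% interval from -0.04 to 0.08. Gna14 and Gna15, relatives with restricted expression, were near the low end of detection in this tissue. Gna14 ranged from 54.5 to 83.0 normalized counts across the mice, and Gna15 from 147 to 196.

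The G12/13 alpha subunits lay on opposite sides of zero, and only Gna13 passed. Gna13 (chromosome 11, 109253598 to 109292195) had 6672, 6863, 6183, 6387 and 6207 normalized counts in B6 mice. In D2 mice it had 7652, 7409, 6912, 6827 and 6900. It was the only one of the 6 genes in which the strains overlapped, since B6 replicate 2 exceeded D2 replicate 4. D2 exceeded B6 by 0.14 ± 0.043 on the log2 scale (adjusted p = 0.036), or 10.5%. The call was lost when any 1 of B6 replicates 3, 4 and 5 or D2 replicates 1, 2 and 3 was left out, with adjusted p up to 0.096. It was also lost without B6 replicates 3 and 5 together (0.10, adjusted p = 0.16).

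Gna12 had 9276, 10203, 10953, 9160 and 11108 normalized counts in B6 mice. In D2 mice it had 9906, 9067, 8768, 7604 and 7966. The strains overlapped through D2 replicate 1, the highest D2 mouse. The log2 fold change was -0.23 ± 0.076 (adjusted p = 0.057), and the gene passed in 4 of 8 other fits to all 10 mice, DESeq2 among them, with adjusted p from 0.014 to 0.078. Gna12 also passed without B6 replicate 1, B6 replicate 4 or D2 replicate 1. Without B6 replicates 3 and 5 its log2 fold change was -0.14 (adjusted p = 0.24).

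Among the beta subunits, 1 of 5 differed. Gnb2 (chromosome 5, 137525542 to 137551860) encodes a widely expressed beta subunit. Its B6 values were 28080, 29473, 28591, 30817 and 29718 normalized counts. The D2 values were 25514, 27017, 27545, 26367 and 27948. The strains did not overlap, but only a narrow gap separated the highest D2 mouse from the lowest B6 mouse. The log2 fold change was -0.13 ± 0.037 (adjusted p = 0.032). Under total-count scaling it was -0.09 (adjusted p = 0.11), and the call was also lost without B6 replicate 2, B6 replicate 4, D2 replicate 1, D2 replicate 2 or D2 replicate 4.

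Gnb4 had a log2 fold change of 0.11 ± 0.040 (adjusted p = 0.089) and passed under total-count scaling and without D2 replicate 1. Gnb1, a major beta subunit of brain, had 52896 ± 4062 normalized counts in B6 and 54839 ± 655 in D2 (SD, n = 5 each). Gnb5, the atypical beta subunit that pairs with the R7 family of RGS proteins, had 21256 ± 1457 and 22170 ± 1518. Neither passed over 10 mice, with log2 fold changes of 0.05 and 0.06. In the 8 mice without B6 replicates 3 and 5, Gnb1 was higher in D2 by 0.13 ± 0.032 (adjusted p = 0.012), and Gnb5 was at -0.00011. Gnb3, known from cone photoreceptors and taste cells, was barely detected, between 9.45 and 28.3 normalized counts in any mouse.

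The gamma subunits held 3 of the 6 significant differences, with 1 gene higher and 2 lower in D2. Gng3 (chromosome 19, 8812009 to 8816884), a neuronal gamma subunit, had 12033, 12077, 14366, 12859 and 14591 normalized counts in B6 mice. In D2 mice it had 15331, 15898, 15789, 15446 and 15821. All D2 values were above all B6 values and were closely grouped, with a coefficient of variation of 1.61% against 9.31% in B6. D2 exceeded B6 by 0.25 ± 0.055 on the log2 scale (adjusted p = 0.0063), or 18.7%. B6 replicates 3 and 5 were again the highest B6 mice, and leaving them out raised the log2 fold change to 0.34 ± 0.035 (adjusted p = 1.7e-05). With the cortex markers held in a fit to all 10 mice it was 0.21 ± 0.028 (adjusted p = 4.5e-05).

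Gng5 (chromosome 3, 146205461 to 146213356), a gamma subunit found in many cell types, had 1269, 1393, 1304, 1237 and 1270 normalized counts in B6 mice. In D2 mice the counts were 1150, 1179, 1097, 1049 and 1037. Again no values overlapped between strains. The log2 fold change was -0.23 ± 0.054 (adjusted p = 0.0091), or -14.8%, and -0.24 without B6 replicates 3 and 5.

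Gng12 (chromosome 6, 66873378 to 66998352), also a broadly expressed gamma subunit, had 6710, 6756, 7167, 6572 and 7135 normalized counts in B6 mice. In D2 mice the counts were 6256, 6155, 5945, 6415 and 6139. The strains did not overlap, and the log2 fold change was -0.15 ± 0.035 (adjusted p = 0.0084). Leaving out B6 replicates 3 and 5, the highest B6 mice, gave -0.11 ± 0.035 (adjusted p = 0.041). The strains were separate in 5 members, Gnao1, Gnb2, Gng3, Gng5 and Gng12 (15.2%, against 16.0% of all genes). Their 2-sided exact permutation p was 0.0079, the smallest that all assignments of 5 and 5 mice allow. Separate strains fix this p in advance, so it adds nothing to the separation. Gnao1, Gng3, Gng5 and Gng12 passed in all 10 fits that left out 1 mouse.

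**Figure D2:**
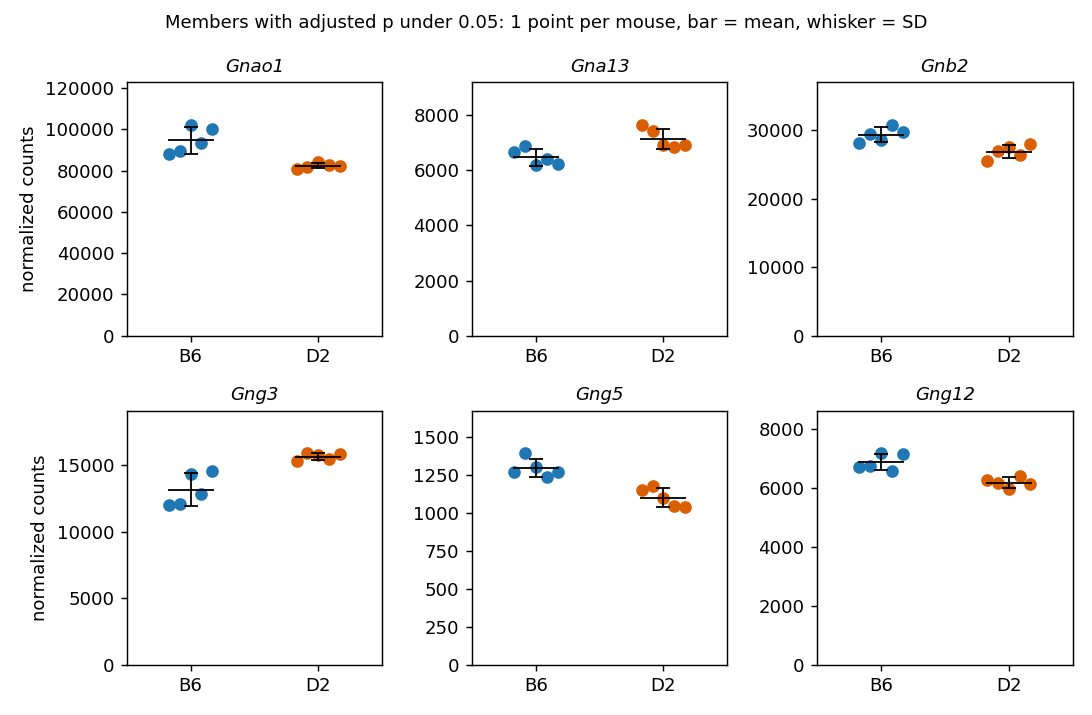
Normalized counts per mouse (y axis, starting at 0) of the 6 genes with an adjusted p under 0.05, in 5 B6 and 5 D2 mice, with 1 point per mouse, bars for the mean and whiskers for the SD. The strains overlap only in Gna13, and B6 replicates 3 and 5 are the highest B6 points in Gnao1, Gng3 and Gng12.

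The remaining 6 gamma genes did not pass. Gng10 had the largest log2 fold change of all 33 members, 0.35 ± 0.148 (adjusted p = 0.13), at only 55.6 to 111 normalized counts per mouse. The log2 fold change was 0.04 for Gng2, a major neuronal form, 0.10 for Gng4, -0.04 for Gng11, -0.05 for Gng13 and -0.20 for Gng8, whose 95% interval ran from -0.60 to 0.19. When B6 replicates 3 and 5 were left out, Gng4 was higher in D2 by 0.32 ± 0.081 (adjusted p = 0.014). Gng13, Gng11 and Gng8 were then at 0.15, 0.08 and 0.01 and did not pass. Gng4 and Gng13 varied more within B6 than within D2, with coefficients of variation of 20.3% against 11.8% and 19.8% against 8.68%.

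None of the 7 adenylyl cyclases differed by edgeR or DESeq2 over all 10 mice, and 2 of them, Adcy2 and Adcy3, had an unadjusted p under 0.05. Adcy2, a cyclase that beta-gamma subunits can stimulate, had a log2 fold change of -0.15 (adjusted p = 0.16). Adcy3, the olfactory and ciliary cyclase, had -0.10 (adjusted p = 0.12). Adcy6, the closest relative of Adcy5, had 0.14 (adjusted p = 0.25). Adcy9, a widely expressed form, was nearly level at -0.03 with an interval from -0.15 to 0.09. Leaving out B6 replicates 3 and 5 left Adcy6 higher in D2 by 0.24 ± 0.063 (adjusted p = 0.016) and Adcy3 lower (-0.13, adjusted p = 0.041), while Adcy2 and Adcy9 were at -0.05 and 0.05.

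Adcy1, a calmodulin-stimulated cyclase abundant in cortex and hippocampus, had almost the same mean in both strains, with 36551 ± 14383 normalized counts in B6 and 35922 ± 3066 in D2 (SD, n = 5 each). Its B6 values were 24020, 26468, 51625, 27809 and 52833, and its D2 values 32235, 37620, 39367, 37219 and 33171. B6 replicates 3 and 5 were the highest of all 10 mice, and the other B6 mice were the lowest. The coefficient of variation was 39.3% in B6 and 8.53% in D2. The log2 fold change of -0.02 ± 0.209 (adjusted p = 0.96) had a 95% interval from -0.48 to 0.43. Without B6 replicates 3 and 5 it turned to 0.46 ± 0.068 (adjusted p = 4.1e-04). With the cortex markers held in a fit to all 10 mice it was -0.12 ± 0.046 (adjusted p = 0.078), so the direction depended on how these mice were treated.

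Adcy7 and Adcy8 showed the opposite placing of these mice. Adcy7, best known from blood and immune cells, had 1205, 1154, 667, 864 and 699 normalized counts in B6 and 1276, 920, 993, 1115 and 977 in D2. Adcy8, the other calmodulin-stimulated cyclase of brain, had 1516, 1582, 1060, 1017 and 1134 in B6 and 2062, 1220, 1501, 1398 and 1587 in D2. B6 replicates 3 and 5 were the lowest of all mice for Adcy7 and among the lowest for Adcy8. Neither gene passed, with log2 fold changes of 0.20 ± 0.163 and 0.30 ± 0.154.

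**Figure D3:**
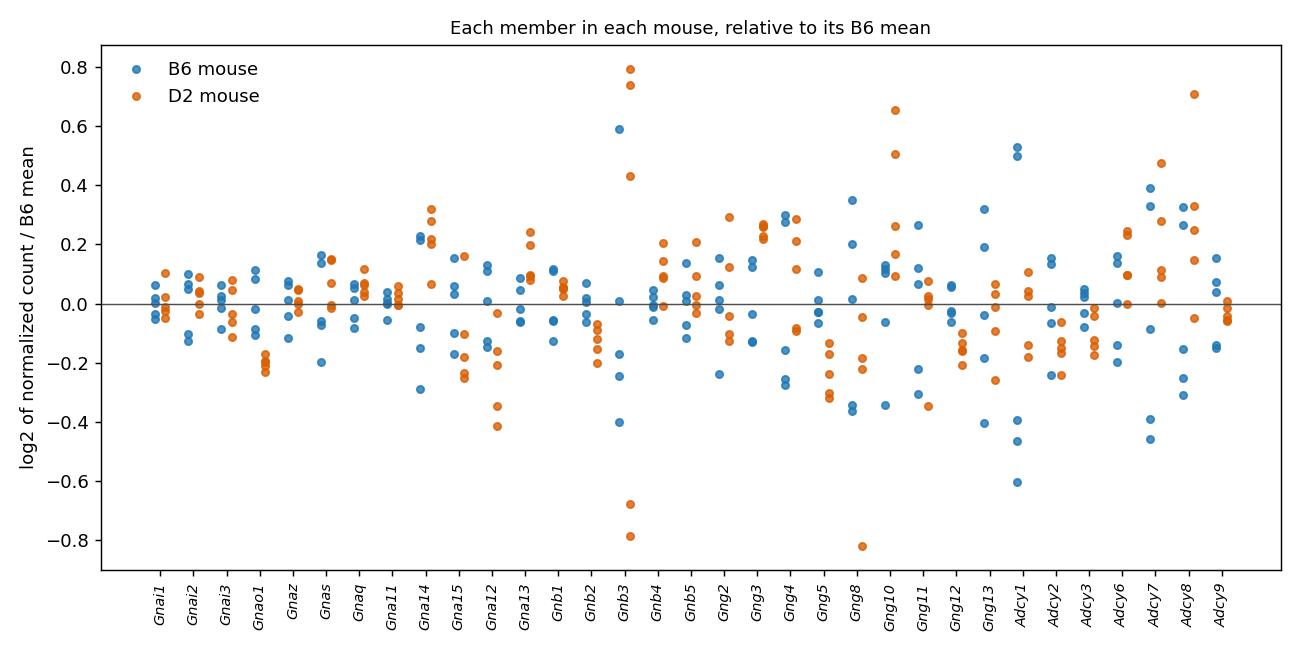
Each of the 33 genes in each mouse, as the log2 ratio of its normalized count to the mean of the 5 B6 mice (y axis), with 1 blue point per B6 mouse and 1 orange point per D2 mouse. The strains separate in Gnao1, Gnb2, Gng3, Gng5 and Gng12, and the wide B6 scatter of Adcy1 splits replicates 3 and 5 from the other B6 mice.

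Several members followed the cortex neuron markers across mice. In a fit with strain and the mean log2 level of the 8 markers, 11 of 33 members had a significant slope on the markers (33.3%), against 11.8% of all genes. The slope was positive for 8 of them, led by Adcy1 at 0.38 ± 0.024 log2 units per log2 unit of marker level, Gng4 at 0.21 ± 0.027 and Gng13 at 0.19 ± 0.034. Adcy6, Gng3, Adcy9, Gnb1 and Gnao1 had slopes between 0.066 and 0.10. The negative slopes belonged to Adcy7 at -0.28, Adcy8 at -0.20 and Gnai2 at -0.068. The shares of members and of all genes are not matched for counts. A mean of at least 1000 normalized counts was reached by 26 of 33 members but by 10641 of 29883 genes. The share of slopes among such genes is not given here. B6 replicates 3 and 5 lie apart from the other mice on the marker scale, and without them only Adcy8 had a significant slope (-0.64), against 0.796% of all genes. The slope of Adcy1 was then 0.23 ± 0.055 (adjusted p = 0.093).

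With the markers held in the fit, 10 members differed between strains, against 26.1% of all genes. All 6 genes of the strain comparison passed, with Gna12, Adcy2, Adcy7 and Adcy8 in addition. Adcy7 was higher in D2 by 0.36 ± 0.077 (adjusted p = 0.0026) and Adcy8 by 0.39 ± 0.110 (adjusted p = 0.016). Without B6 replicates 3 and 5, 11 members differed, against 19.2% of all genes. Gna13 was lost, and Gnas, Gnb1, Gng4, Adcy1, Adcy3 and Adcy6 came in. Adcy7 and Adcy8 did not pass in those mice, at -0.03 and 0.18. In the 8 mice that remain, every D2 mouse had a higher marker level than every B6 mouse, so strain and marker level cannot be told apart there. B6 replicates 3 and 5 also differed from the other B6 mice on oligodendrocyte, striatal, vascular and blood markers, which these fits do not separate from the cortex markers. The part of cortex RNA in these differences was not tested.

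**Figure D4:**
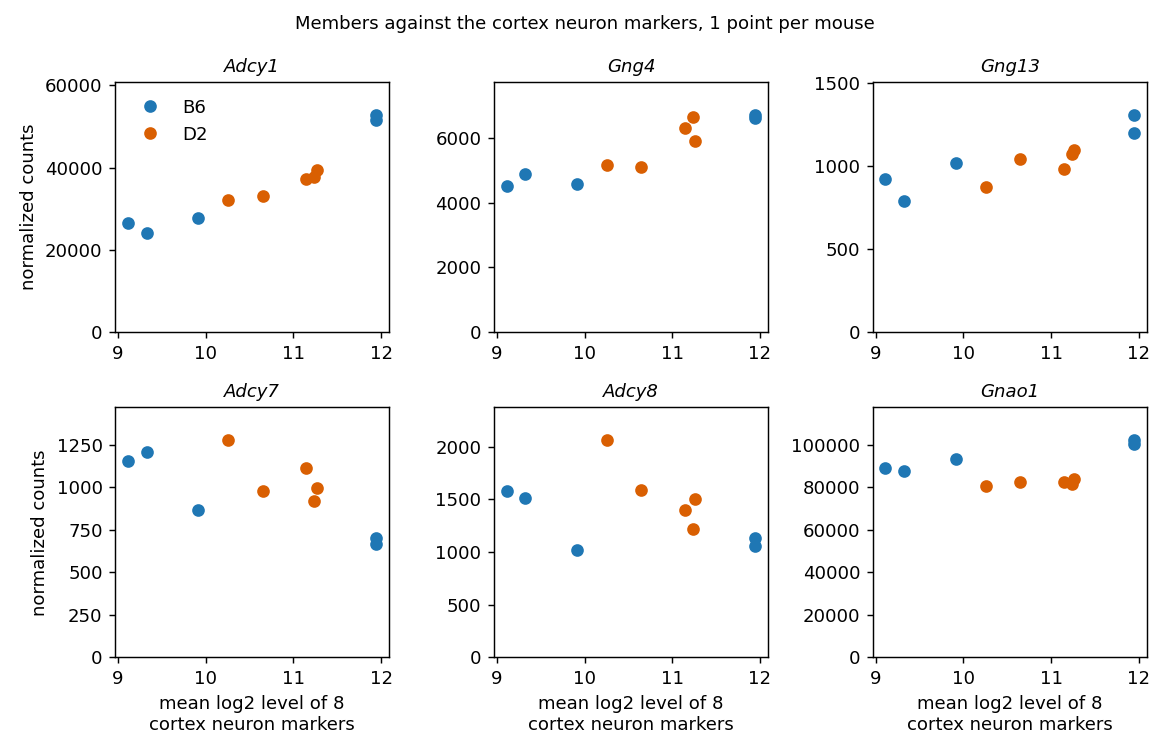
Normalized counts of 6 members (y axes, starting at 0) against the mean log2 level of 8 cortex neuron markers (x axis), with 1 point per mouse. B6 replicates 3 and 5 sit at the right, near 11.95, where Adcy1 and Gng13 have their highest values and Adcy7 its lowest.

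Other markers also moved with strain. Oligodendrocyte markers were lower in D2 for 5 of 7 genes, with mean log2 levels of 14.83 to 15.27 in B6 and 14.38 to 14.92 in D2. Blood markers were lower for 3 of 5, at 9.92 to 10.44 against 8.18 to 8.96. They were uneven, with Hba-a2 at a log2 fold change of -5.47 and Hbb-bt at -1.27. Hba-a1 (0.08) and Hbb-bs (-0.36) did not pass. Of the striatal markers, Drd1, Pdyn and Tac1 were near level (-0.06, 0.01 and -0.02), and Ppp1r1b (-0.23) did not pass. Of the astrocyte markers, 1 was higher and 2 were lower, and of the microglia and vascular markers 1 each way. Gng5, Gng12, Gnb2 and Gnao1 were lower in D2, as were the striatal, oligodendrocyte and blood markers that passed. The part of cell makeup in the differences of these 4 members was not tested.

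Levels between genes were compared per length, as TPM (counts per kilobase, scaled to the same total in each library) computed from the counts and the union of annotated exons. Among alpha subunits, Gnao1 (399 ± 22.3 TPM in B6 and 364 ± 5.42 in D2; SD, n = 5 each) and Gnas (331 ± 32.7 and 366 ± 22.7) stood with the left-out Gnal (390 ± 25.1 and 375 ± 16.6), and their ranges overlapped. Gnai2, Gna11, Gnai1 and Gnaq followed, between 119 and 232 TPM in any mouse. Gnb1, Gnb5 and Gnb2 were close to one another, at 292 ± 19.2, 281 ± 20.9 and 268 ± 9.09 TPM in B6. Gnb4 was near 30 TPM, at 29.8 ± 1.02 in B6.

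For gamma subunits the left-out Gng7 was highest, at 615 ± 49.7 TPM in B6, and Gng3 came next at 139 ± 11.3. Among cyclases the left-out Adcy5 made up 76.2% ± 4.69 of the summed cyclase TPM in B6 and 72.5% ± 1.57 in D2 (SD, n = 5 each). Adcy1 followed with 12.0% ± 4.45 and 13.9% ± 1.23, and on this length no other cyclase reached 40 TPM in the mean of either strain. Levels depend on the length used. With the longest transcript of each gene, Gnas ranged from 607 to 819 TPM across the mice. It then lay above all values of Gnao1 (472 to 566) and Gnal (514 to 596). With the canonical transcript, Adcy2 was at 70.4 ± 7.26 and Adcy3 at 49.7 ± 2.33 TPM in B6, and Gng7 at 1497 TPM. The share of Adcy5 was then 67.4% in B6 and 63.4% in D2, and Gnb1 made up 43.0% of beta TPM in B6, against 33.6% with the union of exons. These shares are descriptions with no test.

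**Figure D5:**
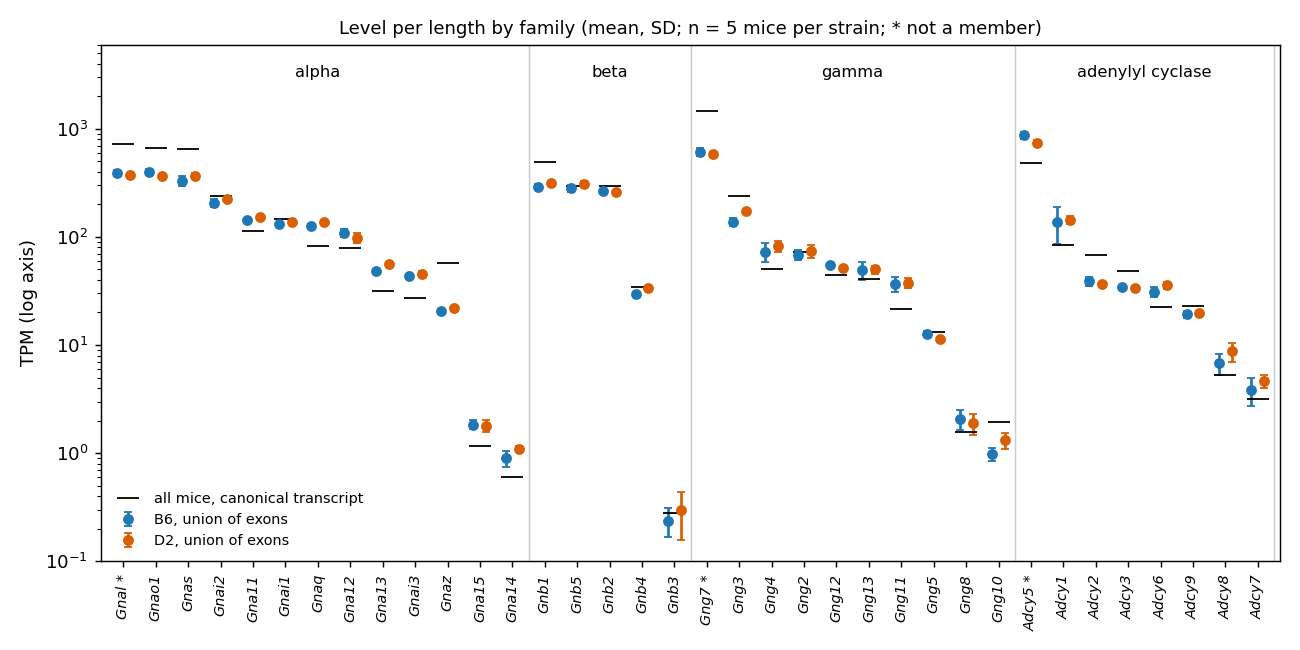
Level per length in TPM (log y axis) of the 33 genes and the 3 left-out genes, marked with a star, ordered within each family. Points are strain means with SD from the union of exons (n = 5 mice per strain) and dashes the mean over all mice from the canonical transcript; Adcy5 at 872 TPM and Gng7 at 615 TPM in B6 stand above their families.

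Many of these genes share transcribed bases with a neighbor. Of the 33, 20 have exon bases that another annotated gene also covers, mostly on the opposite strand, and whether the counting used strand is not stated. Gng5 is the extreme case, with 96.9% of its exon bases covered by Rpf1 and Spata1, neither of which differed (-0.07 and 0.01). Gng3 shares 24.2% with Bscl2, which encodes seipin and had a log2 fold change of 0.08 (adjusted p = 0.096). Gnb2 shares 24.2%, mostly with Actl6b and Gigyf1, at 0.02 and -0.0036. Gna13 shares 2.33% with Gm11696, a noncoding gene that was lower in D2 (-0.61, adjusted p = 4.1e-04), opposite to Gna13. Gnao1 shares 6.16% with 4930488L21Rik, also lower (-0.34, adjusted p = 0.039) but at 263 normalized counts in B6. Of the members that did not pass, Gng13 shares 43.8% with Chtf18 (-0.12), and Gnb4 shares 38.8% with Mfn1 (0.07) and a noncoding gene. Neither Chtf18 nor Mfn1 differed. How far reads of these neighbors enter the counts was not tested. The values of Gng5, Gng13, Gnb4, Gng3 and Gnb2 in particular are therefore uncertain. The annotation also lists processed pseudogene copies named for Gng5, Gng2 and Gnb1, none of them among the genes of the table.

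The 33 genes lie on 17 chromosomes, with Gnaq and Gna14 47098 bases apart on chromosome 19 and Gna15 and Gna11 4302 bases apart on chromosome 10. Within 500 kb of the 6 genes that differed, 28 of 169 other genes passed (16.6%), and near the other members 126 of 731 (17.2%). These are sums over the windows of single members, so a gene in overlapping windows was counted more than once. Both summed shares were close to that of all genes. Single windows varied, from 0 of 11 genes near Gng12 to 25 of 52 (48.1%) near Gnb1.

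RefSeq promoter windows, 250 bases before to 50 after the annotated start, matched 26 of the 33 members. The GC box (GGGCGG, either strand), a binding element of Sp-family factors, was present in 19 of them (73.1%), against 38.2% of 27025 genes. The cyclic AMP response element TGACGTCA was in none, against 2.03%. CCAAT was in 8 (30.8%, against 41.1%), TATAAA in 2 (7.69%, against 15.7%) and the E-box CACGTG in 4 (15.4%, against 8.09%). These are letter matches and not binding sites. The comparison genes are all those with a RefSeq window, whether or not they were in the count table. The shares are therefore not matched for expression, and a gene counted if any of its windows matched. Of the 6 genes that differed, Gna13, Gnb2, Gng5 and Gng12 had a GC box in the window (4 of 6). In 3 of these, Gna13, Gng5 and Gng12, a box lay before a RefSeq start with room for the flanking bases printed below. They are shown because the GC box was the motif found in the most members, with the box in capitals as it reads on the opposite strand, 5′ to 3′ on the plus strand of GRCm39.
Gna13, chr11:109253578-109253607: ccctccccgggcCCGCCCtccctccctccc
Gng5, chr3:146205487-146205516: ccaccggccgctCCGCCCcttctctctctc
Gng12, chr6:66873342-66873371: gcggcgacagccCCGCCCaccgggccgtgc
The boxes end 24, 86 and 21 bases before RefSeq starts of Gna13, Gng5 and Gng12. The GENCODE model of Gng5 starts earlier, so its box lies inside the gene coordinates given above. A second RefSeq window of Gng12 had no upstream box with room for such flanks. Gna13 was higher and the other two were lower in D2, so the box was found with both directions. Gnao1 and Gng3 had no GC box in the window, and that of Gnb2 did not lie upstream with room for such flanks.

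Of the left-out genes, Adcy5 was lower in D2, from 127197 to 146412 normalized counts in B6 and from 103230 to 118698 in D2, with no overlap (log2 fold change -0.30 ± 0.057, adjusted p = 0.0027). Gnal and Gng7 had -0.12 and -0.14 and did not pass over 10 mice (adjusted p = 0.089 and 0.12). Without B6 replicates 3 and 5 both passed, at -0.18 and -0.19. Among 7 further subunits and cyclases, 5 were in the table and 2 differed. Gngt2, a cone-type gamma subunit gene, was lower in D2 (-0.82, adjusted p = 3.7e-04), as was Adcy4, a cyclase known from endothelium and lung (-0.86, adjusted p = 5.5e-06).

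Partners of the members were described from lists of related genes. Over all genes, 8.50% were higher and 9.83% lower in D2. Of 17 chaperones, exchange factors, receptor kinases and arrestins in the table, 3 were higher and 1 was lower in D2. The receptor kinase Grk5 was higher by 0.28 (adjusted p = 6.1e-04) and Arrb2, which encodes beta-arrestin 2, by 0.18 (adjusted p = 0.0024). Arrb1, for beta-arrestin 1, was lower (-0.16, adjusted p = 0.012). Of 5 genes for RGS partners of Gnb5, Rgs9 alone passed (-0.25, adjusted p = 0.014).

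Of 14 G protein effectors, 4 were lower and none was higher, where 9.83% of all genes were lower. Plcb1 and Plcb2, phospholipases that Gq/11 subunits activate, were lower (-0.42, adjusted p = 0.0015, and -0.30, adjusted p = 0.015). Of 13 genes for cyclic AMP effectors and cyclase partners, 1 was higher and 2 were lower. Prkaca, a catalytic subunit of protein kinase A, was higher (0.15, adjusted p = 0.0040). Rapgef3, a cyclic AMP-gated Rap exchange factor, and Akap5, a kinase anchor that binds cyclases, were lower (-0.52, adjusted p = 1.3e-05, and -0.23, adjusted p = 0.026). The median log2 fold changes of these 4 lists lay between -0.12 and 0.03, against 0.0036 over all genes.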

How the data were processed

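RNA from the NAc of 5 B6 and 5 D2 mice was sequenced. The authors trimmed the reads and aligned them to the B6 genome (GRCm39) with STAR 2.7.10b, then used SAMtools 1.6 and featureCounts. The deposited values are raw counts, and the authors left out genes whose median count was 0. Strand settings of the counting are not given in the sources used here. Reads of both strains were aligned to the B6 genome, and loss of reads that carry D2 alleles was not tested. The supplied protocols name different sequencing providers.

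Counts were fitted with edgeR 4.0.16 in R 4.3.3 (TMM, quasi-likelihood F test, 2-sided) by strain, and p-values were adjusted by Benjamini-Hochberg across the 29883 genes, with 0.05 as the threshold. Normalized counts are counts scaled by TMM library sizes. An SE was taken as the size of the log2 fold change over the root of its F value. Single members were compared with exact permutation tests over all assignments of 5 and 5 mice. DESeq2 1.42.0, other scalings and filters, a replicate block, a covariate (mean log2 CPM of the cortex markers) and leave-one-out fits were alternatives, and the fit without B6 replicates 3 and 5 was chosen after seeing the data. The edgeR and DESeq2 steps were tested on simulated data. Positions and lengths came from GENCODE vM39, which held 29519 of the genes, and promoters from RefSeq (GRCm38.p6), placed on GRCm39 by exact match.

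All 33 members are described, and from each related list up to 2 of the largest rises and 2 of the largest falls that passed, given a mean count of 100 or more. The members and lists were chosen with earlier results of these data known. Intervals are for the strain difference and rest on the spread between mice. B6 replicates 3 and 5 were by far the most alike libraries. Their mean chi-square was 4.89 over 15388 genes, against 18.1 for the next closest pair, D2 replicates 3 and 5. Their counts differed beyond counting error, which does not by itself show separate mice. They were kept as separate because the labels give each its own mouse number, and their independence was not tested.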

Additional observations from a re-analysis of the deposited data

Results flagged for a closer look

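Across 66 groups of 5 mice (33 members in 2 strains), 1 held a mouse far from the others by Dixon's test at the 95% level, where chance flags about 1 in 20 groups. Gng11, a gamma subunit gene known from endothelial and other non-neuronal cells, had 557.4 normalized counts in D2 replicate 4, the lowest of the D2 mice, whose other values lay between 706 and 747. The B6 mice ranged from 573 to 852, so the D2 value was just below the B6 range. Its strain difference did not pass with or without any single mouse.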

How the results depend on the processing

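Of 627 member values recomputed under alternatives, 595 kept their side of the threshold and any called direction, 13 lost the threshold, 18 gained it and 1 reversed. The reversed value was Adcy1 without B6 replicates 3 and 5, at 0.46. With the cortex markers in the fit, 10 members passed, 4 of them higher in D2. Without B6 replicates 3 and 5, 11 passed, 6 of them higher. At an adjusted p of 0.01, 4 passed, 1 of them higher, and the share of all genes at that threshold is not given here. Leaving out 1 mouse gave 4 to 7 members, against 15.5% to 19.0% of all genes. Of these members 1 to 2 were higher and 3 to 5 lower, and it was Gna13 that dropped from the higher genes. Upper-quartile scaling, DESeq2 and the filterByExpr filter each gave 7, against 18.4%, 20.7% and 24.6% of all genes tested. DESeq2 size factors and a minimum of 10 counts in every library each gave 6, against 18.4% and 23.7% of all genes tested. The cause of these changes was not tested.

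Total-count scaling turned the split over all genes from 53.6% to 45.0% lower in D2. Same-numbered mice of the strains were not paired by the labels, and their deviations from the strain means correlated at 0.37, -0.41, 0.37, 0.03 and -0.29, with 2 of 5 mice closest to their own number. The replicate block left the count at 6 members, with 4731 genes called in place of 5478. The widest interval was that of Gnb3, at few counts, but what limits the 7 members with a mean under 1000 normalized counts was not tested.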
